A study of Drosophila melanogaster with 4 samples.

Results

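The pericentric borders of chromosome 3 were followed in the H3K9me3 profile of wild-type Drosophila melanogaster embryos. They were described by consecutive windows of 5 kb, 600 of them over the last 3 Mb of the left arm, 3L, and 200 over the first 1 Mb of the right arm, 3R. These 800 windows were defined by position, with earlier results of these data known. They were taken out of 27936 that fit in the 13 sequences with enriched clusters and 23804 on the 5 large arms. Both sets of windows start at the end of the arm sequence that faces the centromere, which is the high end of the coordinates on 3L and the low end on 3R. Distances below are counted from that end, in Mb or kb. The value of a window is its covered share, the percentage of its bases that lie inside clusters the authors called enriched.

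The material was Oregon-R embryos of wild-type genotype, collected 14 to 16 h after laying, whole and of mixed cell types. There was a single group of 2 ChIP libraries made with an abcam antibody against H3K9me3, called replicate 1 and replicate 2, and 2 input libraries whose values were not analysed here. For each ChIP library there is 1 list of clusters, and another, called the series-wide list here, is labelled as the set of replicates. No treatment, mutant or second stage was compared, so the comparison here is between both sides of the same chromosome within each library.

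Histone H3 trimethylated at lysine 9 marks constitutive heterochromatin. It is laid down by methyltransferases such as Su(var)3-9 and Eggless, and it is bound by HP1a, which recruits more of the enzyme, so that the mark can spread along the fibre. In Drosophila the chromatin around each centromere is packed in this form, is rich in transposons and satellite repeats, and still contains genes, some of which depend on it. Where it meets euchromatin, genes placed next to it by a rearrangement are silenced in some cells and not in others, the effect known as position-effect variegation.

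Over the first 1 Mb next to the centromere-facing end, H3K9me3 clusters covered most of 3L and little of 3R. The covered share of 3L was 85.7% in replicate 1 and 83.5% in replicate 2, or 84.6% ± 1.57 (SD, n = 2). That of 3R was 6.14% and 5.56%, or 5.85% ± 0.406 (SD, n = 2). The 3L side exceeded the 3R side by 79.6 percentage points in replicate 1 and 77.9 in replicate 2, a mean of 78.7 ± 1.17 (SD, n = 2), far beyond the spread between libraries. By ratio 3L was covered 14.0 times as widely as 3R in replicate 1 and 15.0 times in replicate 2. With 2 libraries an exact two-sided sign-flip test cannot give a p below 0.5, so no test was made of this or any later difference, and each is set beside the values of both libraries.

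The same contrast held window by window. Of the 200 windows of 3L in that 1 Mb, 179 were covered to at least 50% in replicate 1 and 172 in replicate 2. On 3R 9 of 200 reached that level in each library. Across all windows of the 5 arms the share at or above 50% was 4.99% in replicate 1 and 4.78% in replicate 2, a level that includes the covered stretches of 3L and of other arms. The 4.5% on 3R lay near it, while 3L stood at 89.5% and 86.0%. In the rest of 3R, beyond 1 Mb, 0.781% and 0.911% of windows reached 50%. Windows covered from end to end numbered 121 and 107 on 3L, against 1 and 0 on 3R. Windows without any cluster numbered 4 and 6 on 3L, against 167 and 173 on 3R.

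**Figure D1:**
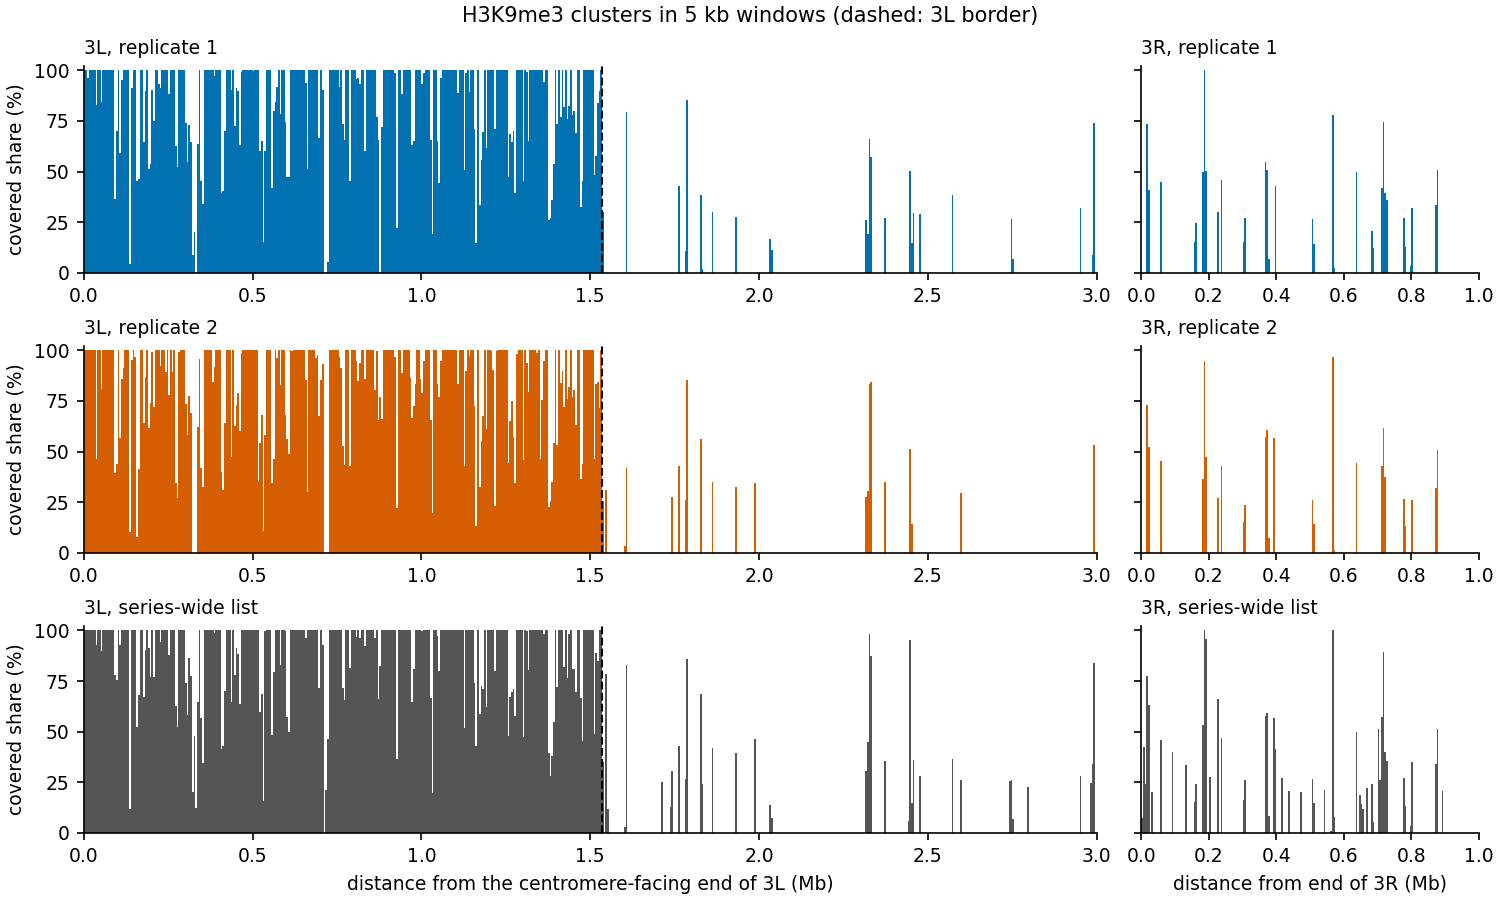
Covered share (%) of each 5 kb window against distance (Mb) from the centromere-facing end of 3L (left) and 3R (right), with replicate 1, replicate 2 and the series-wide list from top to bottom. Bars fill most of 3L up to the dashed line at 1.535 Mb and are scattered beyond it, while 3R shows scattered bars from the start.

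The border on 3L was placed by the split of the 600 windows into an inner and an outer level with the least sum of squares. It fell after 307 windows, at 1.535 Mb from the end and position 23008558, in the lists of both libraries and in the series-wide list alike. The windows on the inner side had a mean covered share of 85.5% in replicate 1 and 83.5% in replicate 2, or 84.5% ± 1.41 (SD, n = 2). Those on the outer side had 3.00% and 2.90%, or 2.95% ± 0.0684 (SD, n = 2). The inner stretch was thus covered 28.5 times as widely as the outer one in replicate 1 and 28.7 times in replicate 2. These 2 levels took up 82.3% of the variation among windows in replicate 1 and 80.0% in replicate 2.

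On 3R the same split found no comparable border. A split always returns a position, and here it fell after 5 windows, at 0.025 Mb, in all 3 lists. The inner windows averaged 22.9% in replicate 1 and 25.1% in replicate 2, and the outer ones 5.71% and 5.06%. The split took up 2.63% and 3.60% of the variation among windows. Extending the search on 3R to 3 Mb moved the position to 0.88 Mb in both libraries, with levels of 6.97% and 6.32% inside and 1.71% and 1.35% outside, and 3.92% and 3.66% of the variation taken up. In the series-wide list the position over 3 Mb was 0.73 Mb, with levels of 11.9% inside and 2.83% outside. The position on 3R therefore depended on the length searched and, over 3 Mb, on the list.

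Sharpness was measured as the step, the mean share of the 100 kb inside the border minus that of the 100 kb outside it. On 3L the inner 100 kb was covered to 83.3% in replicate 1 and 83.5% in replicate 2, and the outer 100 kb to 5.45% and 5.09%. The step was 77.9 points in replicate 1 and 78.4 in replicate 2, or 78.1 ± 0.371 (SD, n = 2). On 3R, where only 5 windows lie inside the split, it was 20.6 and 22.8 points, or 21.7 ± 1.55 (SD, n = 2). The step on 3L was larger than that on 3R in both libraries.

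A running mean over 21 windows gave a second view of the transition. On 3L it reached at most 94.98% in replicate 1 and 94.5% in replicate 2. It last stood at 50% or more at 1.5275 Mb in both. From 1497.5 kb outwards it stayed under 75%, and from 1562.5 kb it did not exceed 25%, in both libraries. This gives a width of 65 kb that is smaller than the running mean itself. That width was defined after the values were seen. The definition chosen earlier starts at the first fall under 75%, which lies far inside the covered stretch, at 287.5 kb in replicate 1 and 282.5 kb in replicate 2, and it gave widths of 1275 kb and 1280 kb. On 3R the running mean never exceeded 15.0% in replicate 1 and 11.8% in replicate 2, so no width exists there.

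**Figure D2:**
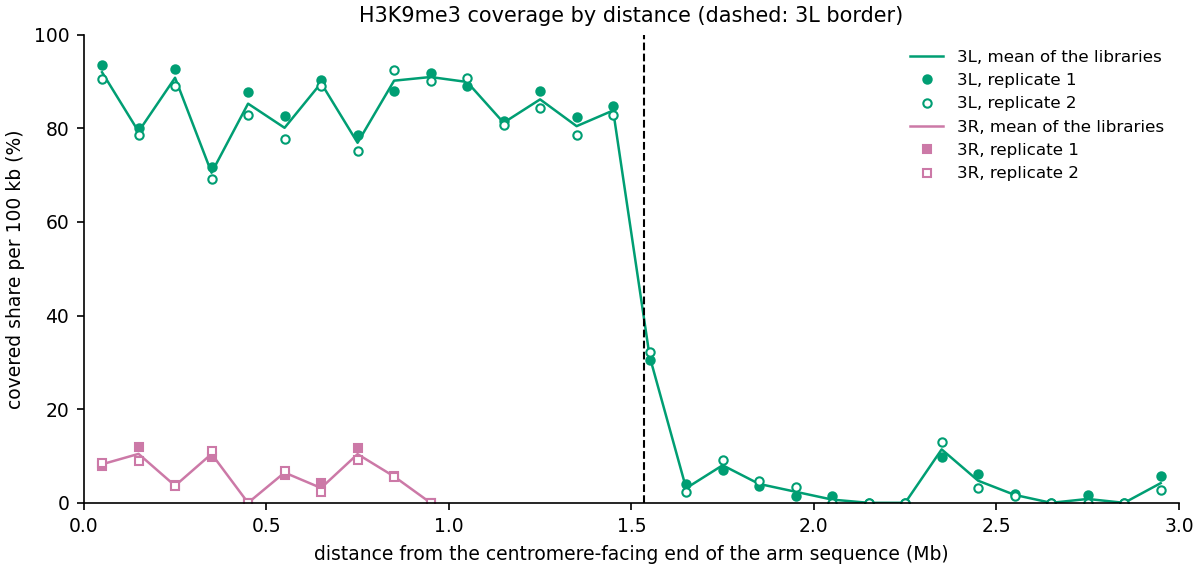
Covered share (%) of consecutive 100 kb stretches against distance (Mb) from the centromere-facing end, with 1 point per library and a line through the mean for 3L (green) and 3R (pink). 3L lies between 69.3% and 93.5% up to 1.5 Mb, passes 31.3% in the stretch that holds the border (dashed) and stays at or below 13.05% beyond it, while 3R does not exceed 12%.

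In the windows next to the 3L border the share fell from full to 0 within 10 kb. The last window inside the border was covered to 100% in all 3 lists. The first window outside was covered to 29.8% in replicate 1, 25.6% in replicate 2 and, by the series-wide list, 35.1%, and the next one to 0 in all 3. In replicate 1 the following 12 windows were empty as well, and a cluster then appeared at 22934472 to 22938435, 70.1 kb beyond the border, with a score of 0.896. In replicate 2 that gap held a cluster of 1540 bp at 22995218 to 22996757 with a score of 0.645. In the series-wide list it held 3 clusters with scores from 0.397 to 0.592, the farthest reaching 15.6 kb beyond the border, and the third window outside was covered to 78.5%.

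The clusters themselves showed an inner and an outer edge at the 3L border. For each cluster the authors give a score, whose scale is not stated and which is used here to rank clusters within a list. The outermost cluster before the border whose score reached the median of its list, which was 1.96 in replicate 1 and 1.99 in replicate 2, ended at 23031132 in replicate 1 and 23031230 in replicate 2. It was 34680 bp long with a score of 2.75 in replicate 1, and 34524 bp long with a score of 2.66 in replicate 2. The last covered base across the border lay at 23007069 in replicate 1 and 23007280 in replicate 2. The inner edge thus differed by 98 bp and the outer edge by 211 bp between libraries.

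Between both edges lay a fringe of 24063 bp in replicate 1 and 23950 bp in replicate 2. It was covered to 74.98% and 76.2%, by 3 clusters with scores from 1.00 to 1.32 in replicate 1 and by 5 clusters with scores from 0.626 to 1.52 in replicate 2. In the 100 kb inside the inner edge, 6 clusters of replicate 1 scored from 1.70 to 3.12 and 8 clusters of replicate 2 from 1.22 to 3.35. The scores of the fringe and of the inner 100 kb did not overlap in replicate 1, and overlapped in replicate 2. By the rule for the inner edge, every cluster of the fringe scores below the median of its list. The low scores of the fringe are thus set by the rule and are no separate result. In the series-wide list, whose median score was 1.34, the edges fell at 23031108 and 23006803, and 2 clusters between them scored 0.790 and 1.21.

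This rule for the edges was chosen after the values were seen. Runs of low scores also occurred inside the covered stretch. The longest held 5 consecutive clusters below the list's median over 40.0 kb, between 307 and 347 kb from the end, in replicate 1 and in replicate 2. Inside the border, fringe included, there were 94 clusters in replicate 1 and 115 in replicate 2, of which 65 and 74 reached the list's median. Those below the median numbered 26 and 36 without the clusters of the fringe. A fringe of low scores was therefore not restricted to the border.

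**Figure D3:**
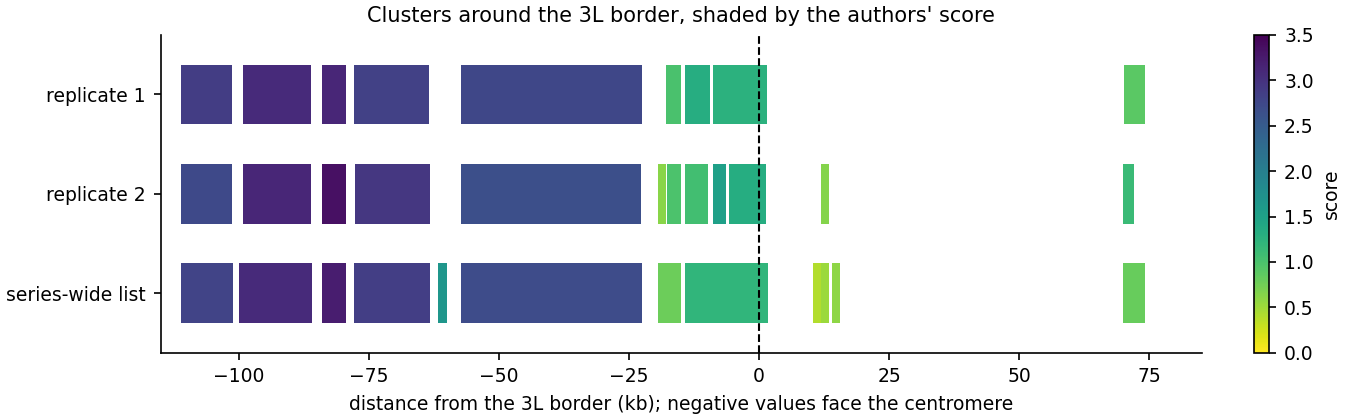
Clusters of replicate 1, replicate 2 and the series-wide list as boxes against distance (kb) from the 3L border (dashed), with negative values facing the centromere and the fill giving the authors' score. Dark boxes with scores of 1.67 and more end near -22.6 kb in all 3 lists, paler boxes with scores up to 1.52 fill the last stretch, and few lie beyond.

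Within the 1.535 Mb covered on 3L the level was high throughout but uneven. The first 100 kb had the highest mean, with 93.5% in replicate 1 and 90.5% in replicate 2, or 92.0% ± 2.08 (SD, n = 2). In replicate 2 the stretches from 0.8 to 0.9 Mb, at 92.4%, and from 1 to 1.1 Mb, at 90.7%, were higher, so this order did not hold beyond the spread between libraries. The stretch from 0.3 to 0.4 Mb was the lowest of the 15 before the border, at 71.8% and 69.3%, or 70.5% ± 1.76 (SD, n = 2), and that from 0.7 to 0.8 Mb followed at 76.9% ± 2.36. Both low stretches were low in both libraries, and each differed from its neighbours by more than the spread between libraries.

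There was no steady decline towards the border. The share was 83.6% ± 2.19 in the first 0.5 Mb, 85.6% ± 0.956 from 0.5 to 1 Mb and 84.3% ± 1.10 from 1 Mb to the border (SD, n = 2 each), differences of the size of the spread between libraries. The median score of clusters over the same stretches was 2.44, 2.40 and 2.53 in replicate 1 and 2.22, 2.23 and 2.27 in replicate 2. Across clusters within a list, which are not independent replicates, Spearman's rho of score with distance was 0.09 for the 94 clusters of replicate 1 and -0.03 for the 115 of replicate 2. The score rose with length instead, with rho of 0.51 and 0.69. Since length and score come from the same calls, these values describe the lists only.

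The covered stretch of 3L consisted of long blocks with short gaps. A block here is a cluster, joined to any it overlaps or touches. Replicate 1 had 94 blocks, of which the median was 10356.5 bp and the longest 51491 bp. Replicate 2 had 115, of which the median was 7259 bp and the longest 51695 bp. Blocks of at least 10 kb numbered 48 and 45, and held 82.9% and 74.7% of the covered bases. The gaps between blocks had a median of 1527 bp in replicate 1 and 1240 bp in replicate 2. Of these gaps 12 of 93 and 15 of 114 were shorter than 200 bp, down to 13 and 4 bp. Block counts on 3L therefore turn in part on whether a short gap was called.

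On 3R blocks were short and far apart. In the first 1 Mb replicate 1 had 21 blocks (median 2230 bp) and replicate 2 had 19 (median 2223 bp). The longest was 10016 bp in replicate 1 and 7093 bp in replicate 2. Over the matched 1 Mb of 3L there were 59 and 70 blocks with medians of 11851 and 7983 bp, 5.31 and 3.59 times those of 3R. The median gap on 3R was 34098.5 bp in replicate 1 and 44580 bp in replicate 2, against 1335.5 and 1303 bp on 3L, which is 25.5 and 34.2 times as long. The arms thus differed more in the spacing of blocks than in their length, and the ranges of block lengths overlapped, from 1428 bp upwards on 3L and up to 10016 bp on 3R in replicate 1.

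Scores differed between the sides in the same direction. Over the matched 1 Mb the median score was 2.40 on 3L and 1.15 on 3R in replicate 1, and 2.23 and 1.16 in replicate 2. On 3L 41 of 59 clusters of replicate 1 and 47 of 70 of replicate 2 scored at or above the median of their list. On 3R 3 of 21 and 3 of 19 did.

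**Figure D4:**
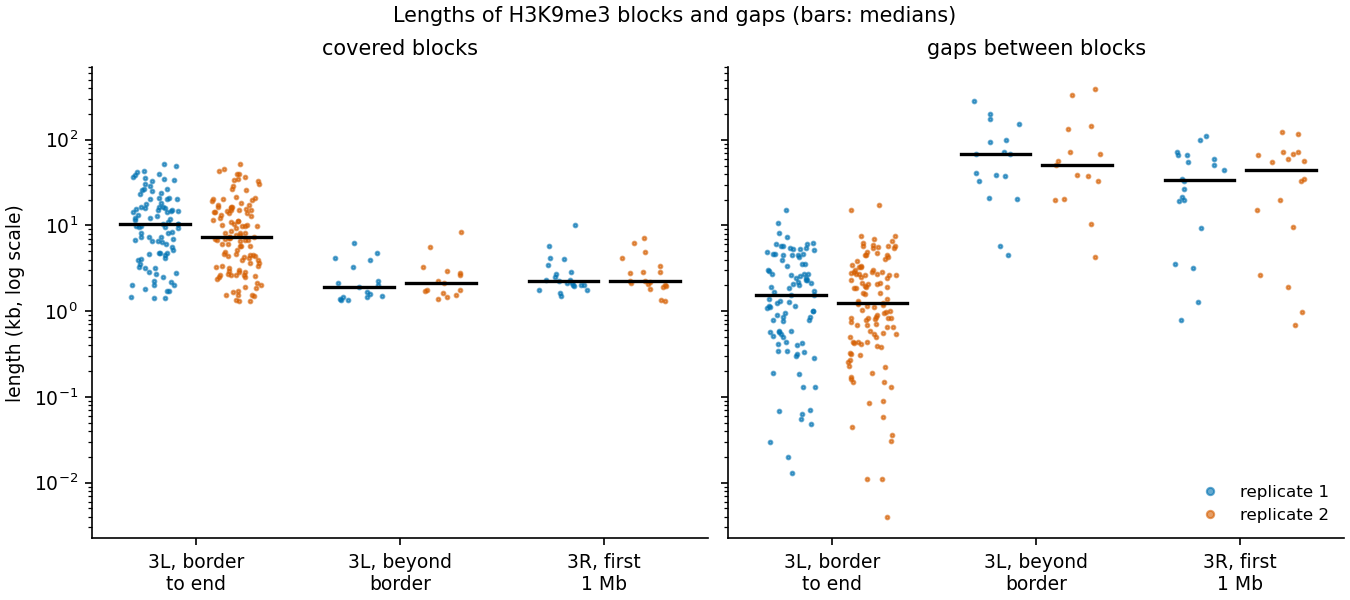
Length (kb, log scale) of each block (left) and each gap between blocks (right) on 3L inside the border, on 3L beyond it and in the first 1 Mb of 3R, with 1 point per block or gap, blue for replicate 1 and orange for replicate 2, and bars at the medians. Blocks are longest inside the 3L border, with medians of 10.4 and 7.26 kb, and gaps there are the shortest.

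The longest regions of 3L covered in both libraries were spread over the covered stretch. They spanned 23438138 to 23483984 (45847 bp), 23618727 to 23661854 (43128 bp), 24451747 to 24491643 (39897 bp), 23884423 to 23923804 (39382 bp) and 24039548 to 24078481 (38934 bp). Their scores were 3.25, 2.85, 3.42, 2.40 and 2.51 in replicate 1 and 3.15, 2.83, 3.502, 2.43 and 2.42 in replicate 2. Length and score did not rank these 5 alike, since the region at 24451747 had the highest score in both libraries and was only the third in length. The cluster nearest the centromere on 3L reached the last base of the arm in both libraries, with a length of 12126 bp in replicate 1 and 37020 bp in replicate 2.

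The longest stretches that neither library covered inside the 3L border were 23818813 to 23833902 (15090 bp), 24206743 to 24217553 (10811 bp), 23159907 to 23167250 (7344 bp), 24006576 to 24012801 (6226 bp) and 24190263 to 24196301 (6039 bp). The first lies in the low stretch from 0.7 to 0.8 Mb, and the second and the fifth in that from 0.3 to 0.4 Mb. The series-wide list covered 20.7%, 19.0%, 9.50%, 32.1% and 10.1% of them. In the longest it held a cluster that overlaps none of either library and has a score of 3.06, above the list's median of 1.34.

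On 3R 18 regions were covered in both libraries. The longest lay at 185271 to 192363 (7093 bp), 16340 to 22035 (5696 bp), 873396 to 877529 (4134 bp), 566099 to 570078 (3980 bp) and 372453 to 375342 (2890 bp). Of the 18 only 3 scored no lower than the median of their list in both libraries. These were 366517 to 369258 with scores of 2.10 in replicate 1 and 2.68 in replicate 2, 714953 to 717714 with 2.17 and 2.62, and 873396 to 877529 with 2.803 and 2.69. They lie 366.5, 715.0 and 873.4 kb from the end, so by this rule the regions of high score were not those nearest the centromere. The region at 57328 to 59557 fell short, with 1.64 in replicate 1 and 1.95 in replicate 2, the latter close to the median of 1.99. In the series-wide list 7 of 38 clusters reached the median of 1.34. Among them were clusters nearer the end, at 32001 to 33001 (2.47) and 57274 to 59570 (1.78).

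The end of 3R nearest the centromere began without clusters. The first was met at 16318 in replicate 1 and 16340 in replicate 2, whereas the series-wide list had one at 4636 with a score of 0.511. The longest stretch without a cluster in either library ran from 877548 to the end of the 1 Mb, 122453 bp, followed by 397165 to 508685 (111521 bp) and 59562 to 159236 (99675 bp). Of the bases covered in the 1 Mb, 50% were reached at 0.375 Mb in replicate 1 and 0.374 Mb in replicate 2. The first 0.25 Mb was covered to 9.50% and 8.38%, and the last 0.25 Mb to 3.19% and 2.98%, with 3.95% and 4.41%, then 7.90% and 6.48%, between them. By 100 kb stretches the share on 3R ranged from 0 to 12% in replicate 1 and from 0 to 11.0% in replicate 2.

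The first 1 Mb of 3R was covered more widely than the rest of that arm. Beyond 1 Mb 3R was covered to 1.58% in replicate 1 and 1.43% in replicate 2, so the first 1 Mb was covered 3.87 and 3.88 times as widely. Blocks were 3.30 and 3.48 times as dense there. Their median length was 1.14 and 1.10 times that of the rest of 3R. The enrichment of the first 1 Mb of 3R over its arm was thus one of block density more than of block length.

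The first 1 Mb of 3R was closer to the part of 3L beyond its border than to the covered stretch. The first 1 Mb beyond the 3L border was covered to 3.46% in replicate 1 and 3.84% in replicate 2, or 3.65% ± 0.267 (SD, n = 2). This was 2.67 points below 3R in replicate 1 (6.14%) and 1.72 points below in replicate 2 (5.56%). There were 13 blocks in each library against 21 and 19 on 3R, with medians of 2001 and 2140 bp against 2230 and 2223 bp. Median scores were 1.02 and 1.13 there against 1.15 and 1.16 on 3R. The share and the number of blocks were higher on 3R in both libraries, while the median gap was longer on 3L in replicate 1, at 40414 bp, and shorter in replicate 2, at 38814 bp, than on 3R.

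Over all 1.465 Mb beyond the 3L border, 6 of 293 windows reached 50% in each library and 267 and 272 were empty. The share of windows at 50% or more was 2.05%, below the 4.99% and 4.78% of all arm windows. The blocks numbered 17 in replicate 1 and 15 in replicate 2, none as long as 10 kb. Further out on 3L, more than 3 Mb from the end, the covered share was 2.52% in replicate 1 and 2.39% in replicate 2. Over the 1.465 Mb beyond the border it was 3.00% and 2.90%, and over the first 1 Mb of these 3.46% and 3.84%. The level outside the border was thus low. As a mean it was higher than that of the rest of the arm in both libraries, but this did not hold throughout. From 2.5 to 2.75 Mb the share was 1.30% in replicate 1 and 0.588% in replicate 2, and from 2.75 to 3 Mb 2.43% and 1.06%. These values lay below the rest of the arm. The shares next to the border also include the outer bases of the block that crosses it.

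Of the 11 regions covered in both libraries beyond the 3L border, 1 was at least 5 kb long, at 22210700 to 22216866 (6167 bp), with scores of 1.44 in replicate 1 and 1.61 in replicate 2. The longest stretch covered in neither, 22224948 to 22508000 (283053 bp), began next to the neighbouring region on its centromere side. The highest scores among these 11 belonged to a region of 4806 bp at 22754300 to 22759105 (2.23 and 2.14) and one of 3222 bp at 22092858 to 22096079 (2.06 and 2.34). Scattered regions of high score thus occurred on this side as on 3R.

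**Figure D5:**
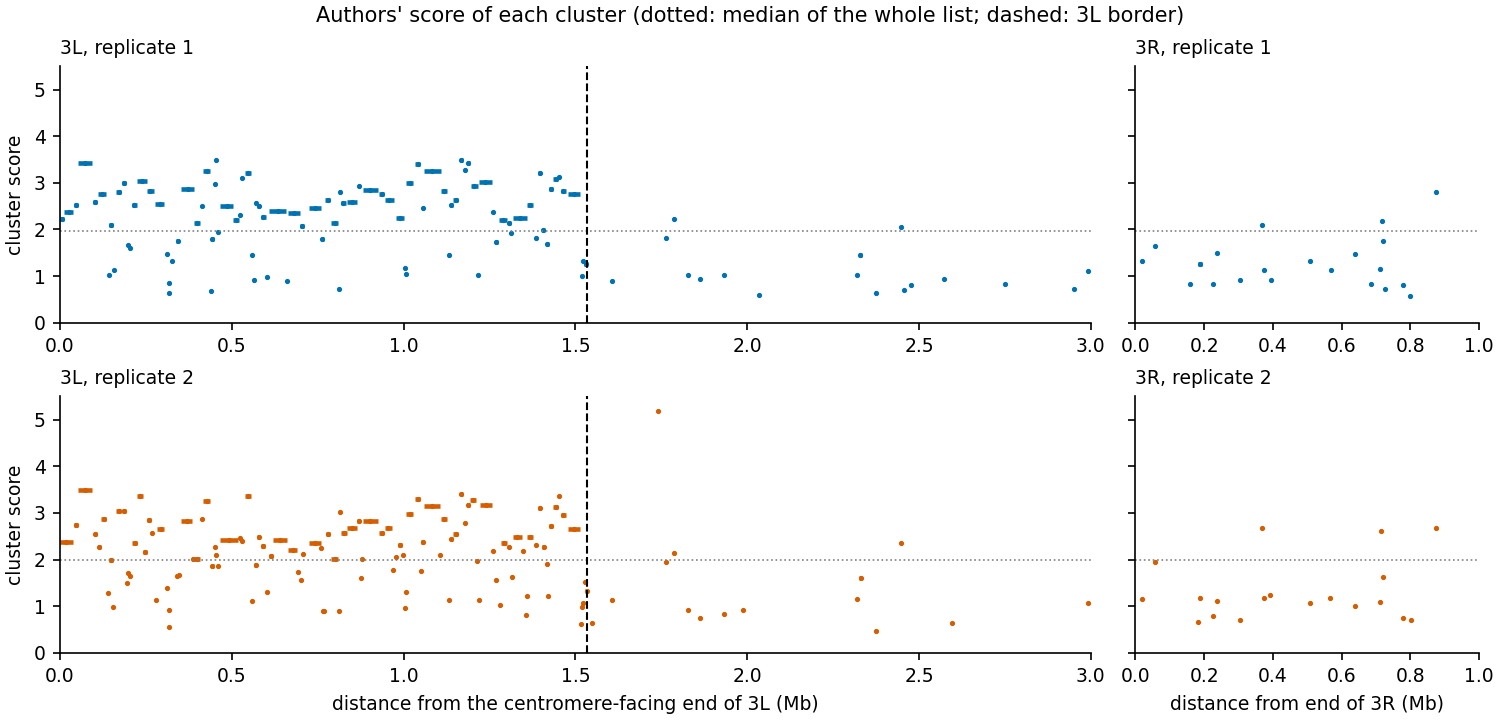
The authors' score of each cluster against distance (Mb) from the centromere-facing end of 3L (left) and 3R (right), in replicate 1 (top) and replicate 2 (bottom), drawn as bars of the cluster's length, with the list's median dotted and the 3L border dashed. Inside the border scores range from 0.646 to 3.49 in replicate 1, and beyond it and on 3R 2 of 17 and 3 of 21 clusters reach the dotted line there.

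How closely the libraries matched depended on the measure. Of the 307 inner windows 157 were fully covered in both libraries and 261 covered to at least 50% in both. Their shares differed by less than 5 points in 236 windows, or 76.9%, and by 50 points or more in 3. Beyond the border and on 3R they differed by less than 5 points in 92.5% of windows, most of them empty in both libraries. Of the 293 outer windows 262 were empty in both and 5 reached 50% in both. On 3R 166 of 200 windows were empty in both and 7 reached 50% in both. The Jaccard index of covered bases, those in both libraries over those in either, was 0.944 inside the 3L border, 0.524 beyond it and 0.757 on 3R. Blocks called in a single library and shifted edges both lower this index. It also rises with the covered share itself, which was far higher inside the 3L border. Its values therefore do not rank the agreement of the libraries between these stretches.

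Edges of single blocks were set side by side where a block of each library overlapped the other alone. Inside the 3L border 60 such pairs had a median shift of 133 bp per edge and a largest of 1302 bp. Beyond it 11 pairs had a median shift of 297 bp, and on 3R 16 pairs had 38 bp. Inside the border 22 blocks of replicate 1 were met by several of replicate 2, and 4 the other way round. Beyond the border and on 3R, 0 and 1 blocks of replicate 1 were split in this way. Inside the 3L border 5 of 94 blocks of replicate 1 and 4 of 115 of replicate 2 were present in a single library. Beyond it 6 of 17 and 4 of 15 were, and on 3R 4 of 21 and 1 of 19. The share present in a single library was thus largest beyond the border. Inside the border the libraries covered 85.5% and 83.5% of the bases, so a block there could hardly miss one of the other library. Beyond it they covered 3.00% and 2.90%. These shares therefore do not compare the agreement of the libraries between the stretches.

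The series-wide list covered more than either library on each side, and proportionally more where coverage was low. Over the first 1 Mb it covered 89.8% of 3L and 9.59% of 3R, a difference of 80.2 points. It reached 50% in 187 windows of 3L and 15 of 3R, where 5.95% of all arm windows did. On 3R it had 38 clusters, of which 16 overlapped clusters of both libraries and 17, or 44.7%, overlapped none. The latter had medians of 1205 bp in length and 0.603 in score, against 2436 bp and 1.16 for those shared with both. Beyond the 3L border 9 of 31 clusters overlapped none, with a median score of 0.592 against 0.866 for those shared with both. Inside the border 6 of 83 did, and there the order was the other way, with 2.51 against 2.41. How this list was combined from the libraries is not stated, and its shortest cluster, 1001 bp, is shorter than the 1301 bp of each library's list.

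Among the other arms searched over 3 Mb in the same way, 2L and 2R also split into 2 clear levels. The border lay at 0.835 Mb in replicate 1 and 0.845 Mb in replicate 2 on 2L, and at 1.56 and 1.535 Mb on 2R. The split took up 62.8% and 63.6% of the variation on 2L, 67.0% and 65.0% on 2R, and 82.3% and 80.0% on 3L. The outer level was 7.12% and 6.94% on 2L and 11.9% and 12.3% on 2R, against 3.00% and 2.90% on 3L. The step was 68.1 and 69.0 points on 2L and 71.2 and 71.5 on 2R, against 77.9 and 78.4 on 3L. In both libraries 3L thus had the largest step of the 3 arms and the lowest outer level. On 3R and X the split took up between 3.66% and 6.50%.

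These distances are from the ends of the arm sequences and not from the centromere. The release holds further heterochromatic sequence of chromosome 3 apart from the arms, 2.56 Mb for 3L and 2.52 Mb for 3R, whose order relative to the arm ends is not used here. The sequence of 3R was covered to 74.8% in replicate 1 and 72.7% in replicate 2, with blocks of a median of 9041.5 and 7897 bp. That of 3L was covered to 81.4% and 79.1%, with medians of 8736 and 8753 bp. The first 1 Mb of the 3R arm had 1 block of at least 10 kb in replicate 1 (10016 bp) and 0 in replicate 2. How much of the difference between the arm ends follows from where each arm sequence was begun was not tested.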

How the data were processed

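Crosslinked chromatin of whole embryos was immunoprecipitated and sequenced, per the labels' protocols. Alignment was by Bowtie 0.12.7, per the submitters' processing notes. The coordinates follow FlyBase release 5, per the file headers. Which caller and threshold were used is not given in the sources used here. Each deposited cluster has a first base, a last base and a score set by the authors. The scale of the score is not stated, and it only ranks or filters clusters within a list. The files hold no read counts, so the depth behind each value is unknown. Unsequenced bases were not measured, and 1 cluster per list that runs past the end of 3L was cut there.

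Shares, splits, blocks and gaps were computed with numpy 2.4.6 and scipy 1.17.1 under Python 3.11.15, and the functions were tested on simulated data. Gaps are those lying wholly within a stretch, and a block that crosses the 3L border was counted inside it. Means ± SD are over 2 libraries, whose origin from separate collections of embryos the labels do not state, so this spread can be technical alone. The windows, rules and alternatives were chosen with earlier results of these data known. The regions named were the 5 longest covered in both libraries and the 5 longest covered in neither on each side, and those beyond the 3L border that reach 5 kb in both; other regions were named after their values were seen. Alternatives were the series-wide list, a limit at the list's median score, joining clusters within 1 kb, windows of 1 and 10 kb, other searched lengths and thresholds, bases in both or either library, and each library alone. Genes were at hand on release 6 only, so no gene is named and no sequence is shown.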

Additional observations from a re-analysis of the deposited data

How the results depend on the processing

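Of 72 values recomputed under alternatives other than a single library, 21 moved by no more than the SD of the 2 libraries (counts: stayed within 1.5 times), 50 moved by more and 1 changed sign. The SD was 0 for the border, where any shift counts as moved. A further 32 values came from leaving out either library, which with 2 libraries moves a mean by less than their SD by arithmetic and so says nothing about stability. In the series-wide list the proximal 1 Mb was covered to 89.8% on 3L and 9.59% on 3R, 80.2 points apart, with steps of 77.7 and 37.6 points, a 3L transition of 1270 kb, 15 windows of 3R at 50%, a 3R block median of 1987 bp, gap medians of 1153 and 15968 bp and a 3R score median of 0.718. Keeping only clusters that score no lower than their list's median, these became 76.0% and 1.01%, 74.97 points apart, borders at 1.515 and 0.715 Mb, a 3L step of 76.6 points, a transition of 1405 kb, 3 windows of 3R, block medians of 14764 and 3156 bp, gap medians of 2745 and 250474.5 bp and score medians of 2.51 and 2.43. The 3R step then changed sign to -3.01 points, as the split moved to 0.715 Mb. The score medians of this setting rise by its own rule, and its 3R values rest on 3 clusters per library. Joining clusters within 1 kb gave a 3L step of 80.0 points, block medians of 16531 and 2259.75 bp and a 3L gap median of 2925.25 bp. Windows of 1 kb placed the borders at 1.5365 and 0.0225 Mb, with steps of 80.0 and 24.3 points and a transition of 1347 kb. Windows of 10 kb placed them at 1.54 and 0.03 Mb, with steps of 76.8 and 17.7 points. The running mean at 50% put the 3L border at 1.5275 Mb and gave none on 3R, where it is never reached. Searching 3 Mb put the 3R split at 0.88 Mb in both libraries and at 0.73 Mb in the series-wide list. A window threshold of 25% counted 22 windows of 3R and one of 75% counted 2. Bases covered in both libraries came to 81.9% and 5.04%, 76.9 points apart, and in either to 87.2% and 6.66%, 80.6 points apart. Over 0.5 Mb the difference was 77.0 points. The 3L transition counted from the last fall under 75%, an alternative chosen after seeing the data, was 65 kb wide. Wherever the covered shares of both arms, or their difference, were recomputed (the series-wide list, each library alone, the score limit, joined clusters, bases in both or either library, and 0.5 Mb), 3L was covered more widely than 3R. The cause of these shifts was not tested. The number of reads is unknown, so weak enrichment on 3R or beyond the 3L border may lie below what the calls detect.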

Other observations

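A cluster of 1372 bp at 22802028 to 22803399, 1.74 Mb from the end of 3L and beyond the border, had the highest score of all clusters in the windows of replicate 2, 5.19. Replicate 1 had no cluster there. The series-wide list had one at 22802023 to 22804195 with a score of 3.47. It was singled out after its value was seen, and the cause of the difference between libraries was not tested.

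On 3R 19 of the 166 windows that were empty in both libraries held part of a cluster in the series-wide list. Beyond the 3L border 7 of 262 such windows did, and inside it 2 of 3.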
